A study of Mus musculus with 8 samples.

Results

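The cells described here are mouse CD8 T cells that carried RNA of the cell division programme when they were sequenced straight from culture. The cells were chosen by measured values: a cell was counted as cycling when it had at least 1 UMI (a unique molecular identifier, which marks 1 captured RNA molecule) in at least 3 of 6 genes: Mki67, Top2a, Cenpf, Nusap1, Birc5 and Ccna2. By this rule 215 of 5610 kept cells of the culture library were cycling, which is 3.83%. A further 3975 cells (70.9%) had no UMI in any of the 6 genes and served as the comparison cells, and 1420 (25.3%) had 1 or 2 of the genes. The 5610 cells came from 6508 deposited barcodes of this library, and the whole series held 16404 kept cells from 18092 barcodes in 4 libraries.

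The study asked what happens to antitumor T cells that take up mitochondria from stromal cells of the bone marrow (BMSCs). Activated CD8 T cells of 3 donor mice were cultured with BMSCs whose mitochondria carried the red fluorescent protein dsRed. T cells with dsRed, called MitoPositive, and T cells without it, called MitoNegative, were then sorted. Both sorted states therefore come from cells that were activated and shared a culture with BMSCs, and no T cell kept away from BMSCs was analysed here. At d0 the 6 sorted samples, 1 MitoPositive and 1 MitoNegative sample from each donor mouse, were marked with antibody hashtags and pooled into 1 library. Other sorted cells were transferred into B6 mice bearing B16KVP tumors and taken from spleen and tumor on day 7. The strain and age of the donor mice, the activation stimulus and the length of the culture are not given in the sources used here.

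The submitters' texts disagree on the d0 hashtags. The series design, the deposited readme and the deposited hashtag list give odd numbers to MitoPositive cells, whereas the extraction protocol gives numbers 1 to 3. The hashtag list was used, because it also names the donor of each hashtag. Under the other map the samples with hashtags 2 and 5 change state, and every comparison by state depends on this choice.

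A cell that divides copies its DNA in S phase and separates the copies in mitosis. Transcription factors of the E2F family switch on the replication genes early in this sequence, and the genes of mitosis follow in G2 phase under the DREAM and MYBL2-FOXM1 complexes, which bind the CHR motif of their promoters. In CD8 T cells, antigen and interleukin 2 set off rapid rounds of division, and the cells lose part of their naive and memory programme, including the transcription factor Klf2, as they become effector cells.

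Cycling cells were the deeper cells of the library. Their median depth was 18260 UMIs and 4153 genes, against 6259 UMIs and 2308 genes in the comparison cells, a ratio of 2.92 for UMIs. The chance of seeing 3 of 6 genes rises with depth, so levels are given as CPM (the UMIs of a gene scaled to the same total of UMIs in every sum), and both kinds of cells were compared after each cell had been thinned to 3000 UMIs. Thinning left out 4 cycling and 1341 comparison cells with fewer UMIs. Of the cells left, 152 still met the rule on their thinned counts, and 14 of the 215 cycling cells had none of the 6 genes after thinning. The 598 barcodes without a single clear hashtag, which can hold more than 1 cell, were left out. No doublet caller was run, so a droplet with cells of 1 sample stays in.

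A few barcodes stood apart. The median of the top hashtag was 2614.5 UMIs over the kept cells and its 99th percentile was 12816, but 13 barcodes had 100000 or more. Of these 13, 11 were cycling by the rule, 9 of them MitoPositive (6 from donor 3) and 2 MitoNegative, both from donor 1. Their median depth was 67587 UMIs, with a maximum of 324564, against a median of 17786 in the other 204 cycling cells. These 11 barcodes held 21.3% of all UMIs of cycling cells, 37.3% in the MitoPositive sample of donor 3 and 50.9% in the MitoNegative sample of donor 1. The share of cycling cells, their median depth, the histone sum by state, the calls by state in cycling cells and the interaction are also given without them. Other values of cycling cells do not leave them out.

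**Figure D1:**
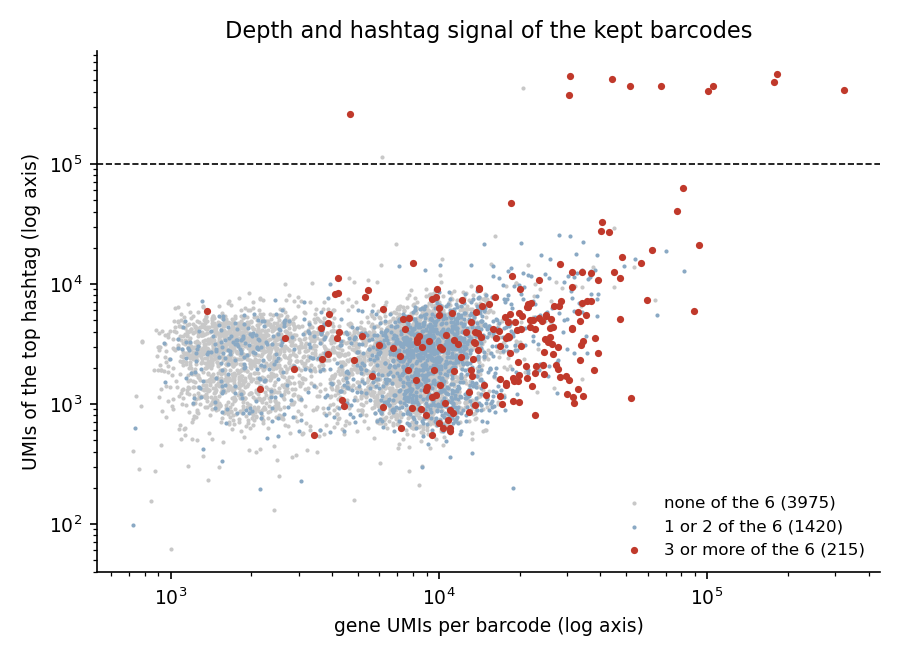
Each point is 1 of the 5610 kept barcodes at d0, with its gene UMIs on the horizontal axis and the UMIs of its highest hashtag on the vertical axis (both logarithmic). Cycling cells (red) lie to the right, with a median of 18260 UMIs, and 11 of the 13 barcodes above the dashed line at 100000 hashtag UMIs are cycling.

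The cycling cells carried CD8 T cell RNA. All 215 had a UMI of Cd3d, Cd3e or Cd3g, which encode chains of the T cell receptor complex, and 212 had a UMI of Cd8a or Cd8b1, the chains of CD8. None had a UMI of Cd4. At 3000 UMIs per cell the CD3 share was 97.6% and the CD8 share 92.9%, against 99.8% and 97.7% of comparison cells. Stromal markers were near 0: 3 of 15 genes had any UMI, 8 UMIs in all, and their sum was 1.187 to 1.498 CPM in the MitoPositive and 0 to 13.5 CPM in the MitoNegative cycling sums, against 0.428 to 3.17 CPM in the comparison sums. Erythroid markers gave 0 to 2.25 CPM, against 1.16 to 4.48 CPM. Markers of B cells summed to 46.4 to 126 CPM in cycling cells against 148 to 249 CPM in comparison cells, myeloid markers to 56.4 to 182 against 60.9 to 102 CPM, and natural killer and gamma delta T cell markers to 46.4 to 142 against 52.9 to 97.3 CPM. The CD4 T cell list, which differed by state, is given beside the results by state. Their part in the results was not tested. Of the barcode sequences at d0, 1 to 9 were also found in a day 7 library, none of them a cycling cell.

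The 6 genes that chose the cells mark different steps of division. Mki67 encodes Ki-67, which coats mitotic chromosomes. Top2a encodes the topoisomerase that untangles replicated DNA, and Ccna2 encodes cyclin A2, the partner of CDK2 in S phase and of CDK1 in G2. Cenpf encodes a kinetochore protein, Nusap1 a spindle microtubule protein and Birc5 survivin, a part of the chromosomal passenger complex. These genes are at 0 in the comparison cells by construction, so their levels are a description. In thinned cells Top2a was at 1083, 1351 and 957 CPM in the MitoPositive samples of donors 1, 2 and 3 and at 1333, 1185 and 1157 CPM in the MitoNegative samples. In these thinned sums the ranges of both states overlapped. Mki67 was at 435, 713 and 471 CPM in MitoPositive and at 667, 593 and 765 CPM in MitoNegative cycling cells, and again the ranges overlapped. With all UMIs, Top2a was at 980, 1155 and 732 CPM in MitoPositive and at 1219, 1314 and 1346 CPM in MitoNegative cycling samples, which did not overlap. A UMI of Mki67 was found in 97.7% of the 215 cells, of Top2a in 93.0%, of Birc5 in 88.8%, of Cenpf in 85.6%, of Nusap1 in 83.7% and of Ccna2 in 71.2%.

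Most cycling cells were well inside the rule. All 6 genes were found in 121 cells, 5 in 41, 4 in 28 and 3 in 25. Beside the 6 genes, 3 lists of mitotic genes were summed per cell without them (mitotic cyclins, kinases and phosphatases; kinetochore, checkpoint and anaphase genes; spindle motors, microtubule and cytokinesis genes). The median of this sum was 12.1 UMIs per 10000 in cells with none of the 6 genes, 14.1 in the 165 cells with 2 of them and 29.2 in the 25 cells with 3, the cells on either side of the threshold. The last 2 groups had median depths of 10846 and 10779 UMIs. The sum was 53.4 in cells with 4 genes, 111 in cells with 5 and 191 in cells with all 6, whose median depth was 22837 UMIs.

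Among themselves the 215 cells differed widely in mitotic and in replication RNA. The mitotic sum ranged from 5.02 to 390 UMIs per 10000, with 10th, 50th and 90th percentiles of 31.9, 132 and 259. The genes of replication-dependent histones, which package new DNA in S phase, spanned 0 to 231 UMIs per 10000, with percentiles of 0.826, 7.15 and 110. In comparison cells the 90th percentile was 20.5 for the mitotic and 5.14 for the histone sum. Cells high in mitotic RNA included both cells with 100 or more histone UMIs per 10000 (12.6% of all cycling cells) and cells with almost none. Across the 215 cells the Spearman correlation of the mitotic with the histone sum was 0.31, and that of the histone sum with the sum of the S phase and replication list was 0.56. In the 152 cells that met the rule on thinned counts these correlations were 0.10 and 0.61. All cells share 1 library, and the sums of a cell share its depth. Histone RNAs of this class mostly lack a poly(A) tail, on which the capture in these libraries relies, and several histone genes are near-identical copies, so their separate levels are uncertain.

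**Figure D2:**
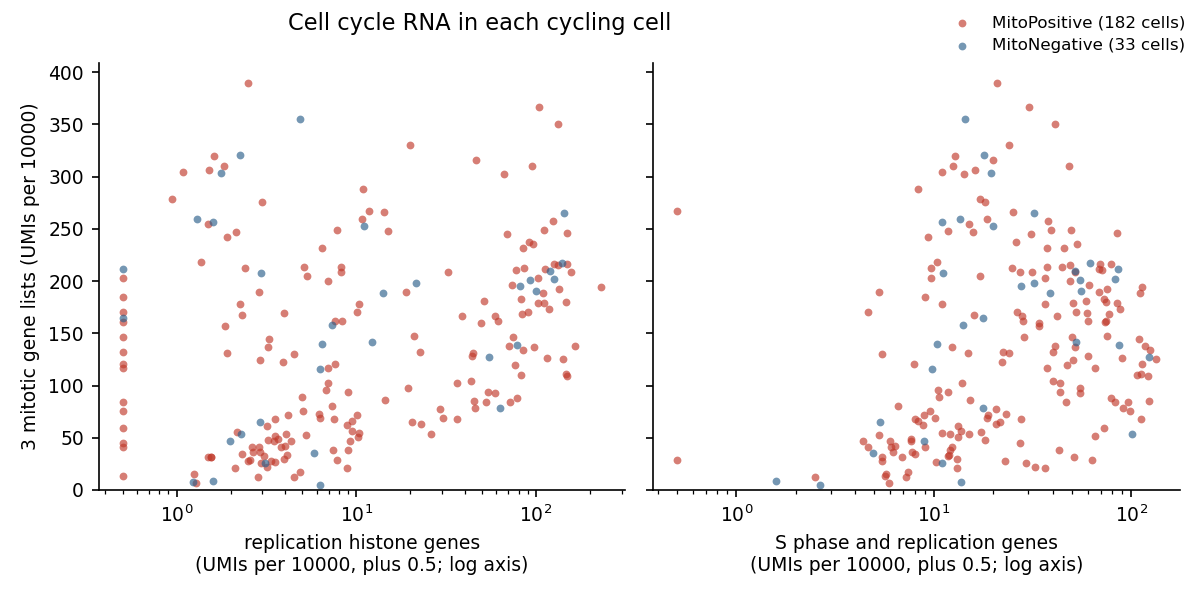
Each point is 1 of the 215 cycling cells, red for MitoPositive and blue for MitoNegative. The vertical axis gives UMIs per 10000 in the 3 mitotic lists, and the horizontal axes (logarithmic, 0.5 added) give UMIs per 10000 in replication histone genes and in S phase genes. Cells with over 200 mitotic UMIs per 10000 occur at both ends of the histone axis, and cells of both states are spread over the range.

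Against the comparison cells, each list of division genes held genes that were higher in every sample. Since the rule used 6 genes of this contrast, it is described without a test. Of 6927 genes with a mean of at least 20 CPM in either kind of cells, 163 (2.35%) had a measured CPM at least 2-fold higher in each of the 6 samples, and 22 (0.318%) one at least 2-fold lower. These are called higher and lower below. A gene without a UMI in 1 cycling sum is not counted as higher. Such a sum does count as lower where the comparison cells had a UMI. Ratios need a count added to each sum. With 0.5 added, 283 genes (4.09%) were at least 2-fold higher and 3 (0.0433%) lower in all 6 samples, 4.13% in all, but 105 of the 283 had no UMI in at least 1 cycling sum and passed there through the added count alone. The smallest thinned sum of cycling cells holds 21000 UMIs, where 1 UMI is worth 47.6 CPM, while 1 UMI is worth under 1 CPM in each comparison sum. The 3 lower genes with 0.5 added, named after their values were seen, were Btg1, Tgtp2, an interferon-induced GTPase gene, and Actn1, an actin crosslinker gene, at 85 ± 33.2 against 251 ± 78.2 CPM. With the added count scaled to the size of each sum, 161 genes were higher and 20 lower. With 0.5 added to all UMIs and no thinning the numbers were 303 and 11.

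The replication genes held 52 members, of which 43 passed the level filter and 13 were higher (25 with 0.5 added to each sum). Pclaf, which encodes a factor bound to the PCNA clamp, was at 602, 439 and 447 CPM in the MitoPositive and at 95.2, 667 and 471 CPM in the MitoNegative cycling samples. It stood at 4.91 to 12.4 CPM in comparison cells, so that every cycling sample lay above every comparison sample. Pola1, the catalytic subunit of the polymerase that primes replication, averaged 239 ± 112 against 16.3 ± 2.59 CPM (SD, n = 6 samples), 14.7-fold. Clspn (claspin, a factor of the replication checkpoint) averaged 166 ± 56.8 against 2.70 ± 1.29 CPM. Rrm2, the ribonucleotide reductase subunit that supplies DNA precursors, averaged 126 ± 65.7 against 3.604 ± 1.662 CPM and had no UMI in 1 thinned MitoNegative sum. Pcna, the sliding clamp, averaged 146 ± 69.2 against 34.2 ± 4.01 CPM, 4.27-fold. The MitoNegative sample of donor 1, with 7 cycling cells, was the lowest cycling sample for Pclaf, Rrm2 and Pcna.

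Of 22 replication histone genes 16 passed the filter and 5 were higher (14 with 0.5 added). Hist1h2ap, which encodes a histone H2A, was at 1982, 1000 and 1435 CPM in the MitoPositive and at 571, 1667 and 2000 CPM in the MitoNegative cycling samples. In comparison cells it lay between 24.6 and 37.4 CPM. Hist1h2ae, another H2A gene, averaged 680 ± 293 against 16.4 ± 2.14 CPM.

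In the mitotic lists, 13 of 22 measured genes for mitotic cyclins, kinases and phosphatases (of 24 members), 14 of 26 genes for the kinetochore, checkpoint and anaphase, and 26 of 30 measured genes (of 32) for the spindle and cytokinesis were higher. With 0.5 added the numbers were 22, 24 and 28, of which 9, 9 and 2 had no UMI in at least 1 cycling sum. Cdk1, the kinase that starts mitosis, was at 148, 140 and 129 CPM in MitoPositive and at 143, 296 and 216 CPM in MitoNegative cycling samples, against 1.46 to 4.24 CPM in comparison samples. Ccnb1, which encodes its partner cyclin B1, averaged 86.6 ± 76.2 CPM and had no UMI in 2 thinned MitoNegative sums. Cks2, a subunit of the CDK complexes, averaged 400 ± 121 against 23.0 ± 3.82 CPM, and Tpx2, which activates Aurora A kinase on the spindle, 295 ± 62.9 against 1.91 ± 1.47 CPM.

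At the kinetochore, Cenpa, the histone variant of centromeres, averaged 538 ± 98.5 against 38.7 ± 5.59 CPM, 13.9-fold. Ube2c, the ubiquitin-conjugating enzyme of the anaphase-promoting complex, averaged 500 ± 130 against 10.1 ± 5.58 CPM. On the spindle, Tubb5, a beta-tubulin, averaged 1109 ± 265 against 207 ± 16.3 CPM, 5.35-fold, and Kif4, a chromosome-bound kinesin, 166 ± 61.5 against 1.14 ± 1.72 CPM. Of the 24 genes for condensin, cohesin and chromosome structure 10 were higher (15 with 0.5 added). The chromatin protein gene Hmgb2 averaged 3917 ± 1292 against 452 ± 25.2 CPM, 8.67-fold.

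Genes that start or restrain the cycle lay on both sides. Of 34 members 25 were measured, 3 were higher and 1 was lower (7 and 1 with 0.5 added). E2f8, a repressor among the E2F factors, averaged 39.3 ± 6.70 CPM against 0.371 ± 0.407 CPM, and E2f7, its close relative, 57.4 ± 36.1 against 0.127 ± 0.311 CPM, with no UMI in 1 thinned MitoNegative sum. The lower gene was Btg1, an antiproliferative gene of resting lymphocytes, at 472, 480 and 467 CPM in MitoPositive and 381, 370 and 451 CPM in MitoNegative cycling samples, against 1016 to 1444 CPM in the comparison samples. No cycling sample reached any comparison sample. Ccnd3, which encodes cyclin D3 of the G1 phase, averaged 388 ± 90.8 against 735 ± 63.5 CPM and was lower in 6 of 6 samples. Ccnd2 (cyclin D2) averaged 264 ± 75.8 against 400 ± 56.4 CPM, and the CDK inhibitor gene Cdkn1b (p27) 184 ± 99.3 against 196 ± 18.9 CPM, with ratios on both sides of 1.

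**Figure D3:**
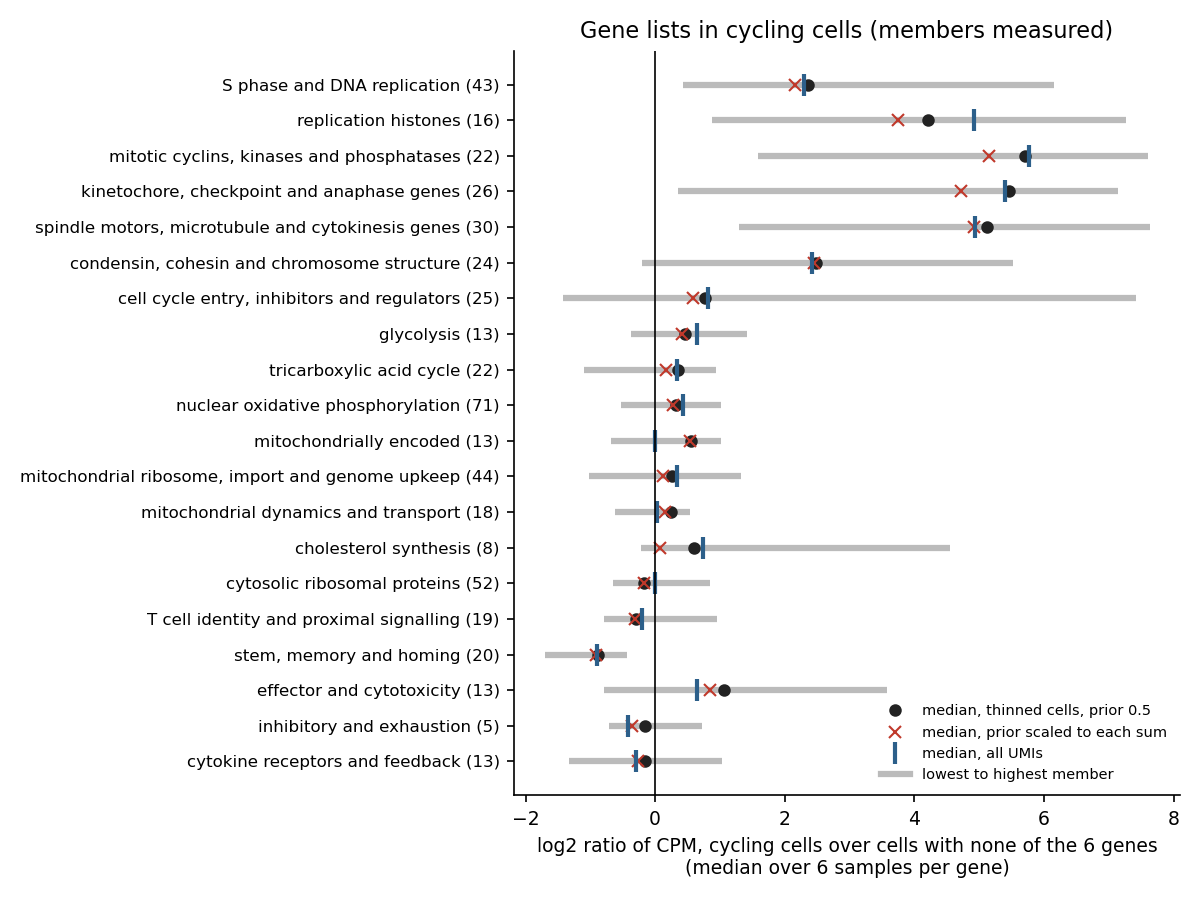
For each gene list (members measured in parentheses) the plot gives the log2 ratio of cycling over comparison cells, each gene as its median over 6 samples. Black points are list medians in thinned cells, red crosses medians with the scaled added count, blue ticks medians with all UMIs, and grey bars run from the lowest to the highest member. The 3 mitotic lists lie highest, at 5.12 to 5.70, and the stem, memory and homing list lies lowest, at -0.88.

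Because the mitotic genes were high together in these cells, the promoters of the list members were searched for the CHR motif (TTTGAA or TTCGAA), an E2F site (TTTCCCGC, TTTCGCGC, TTTGCCGC or TTTGGCGC) and the CCAAT box, each on both strands, in the 250 bases before and 50 bases after the gene start given by RefSeq (assembly GRCm38.p6). Promoters were matched for 69 of 82 mitotic members. A CHR motif was found in 49 of the 69, 71.0%, against 19.4% of all 27025 promoters. A CCAAT box was found in 73.9% of them, against 37.9% of all. The E2F words were found in 14 of 40 matched replication promoters, 35.0%, against 2.32% of all promoters and 7.25% of the mitotic ones, and the CHR motif in 15% of the replication promoters. Of the 6 genes of the rule 5 were matched, and 3 had a CHR motif. A match is a description of these letters and not evidence of binding. The 200 bases before the start of 4 genes follow, from RefSeq (GRCm38.p6), each read 5′ to 3′ on the minus strand. They show 2 genes of the rule, the central mitotic kinase and 1 replication gene, at chr7:135716380-135716579 (Mki67), chr11:99024190-99024389 (Top2a), chr10:69352913-69353112 (Cdk1) and chrX:93632156-93632355 (Pola1). Capitals mark CHR words and E2F words on either strand.
Mki67: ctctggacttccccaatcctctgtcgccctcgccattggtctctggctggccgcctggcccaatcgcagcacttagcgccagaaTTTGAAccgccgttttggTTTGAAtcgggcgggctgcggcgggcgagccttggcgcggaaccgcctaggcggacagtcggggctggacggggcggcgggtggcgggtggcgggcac
Top2a: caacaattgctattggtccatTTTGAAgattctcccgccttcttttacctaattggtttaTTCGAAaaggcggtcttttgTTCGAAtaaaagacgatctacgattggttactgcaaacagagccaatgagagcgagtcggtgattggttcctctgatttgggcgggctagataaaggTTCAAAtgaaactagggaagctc
Cdk1: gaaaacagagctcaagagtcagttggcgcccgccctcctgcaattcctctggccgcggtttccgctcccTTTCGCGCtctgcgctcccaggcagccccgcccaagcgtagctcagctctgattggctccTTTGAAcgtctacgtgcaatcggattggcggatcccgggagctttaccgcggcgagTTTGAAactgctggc
Pola1: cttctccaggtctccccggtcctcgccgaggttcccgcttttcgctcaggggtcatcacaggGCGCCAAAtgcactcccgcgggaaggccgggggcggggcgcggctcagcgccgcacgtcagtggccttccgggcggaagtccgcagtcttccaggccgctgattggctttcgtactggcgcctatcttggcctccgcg
Mki67 had 2 CHR words in this window and Top2a 4, neither with an E2F word. Cdk1 had 2 CHR words and 1 E2F word, and Pola1 had 1 E2F word and no CHR word.

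Outside the cell cycle, the stem, memory and homing genes were lower. All 20 members were measured, their medians ran from -1.70 to -0.44 on the log2 scale, and 17 had a lower measured CPM in all 6 samples, as did 7.78% of all genes. Of the 20 members 2 were at least 2-fold lower in all 6 samples, and none with 0.5 added. Satb1, a chromatin organiser of T cells, was at 731, 825 and 788 CPM in the MitoPositive and at 714, 704 and 569 CPM in the MitoNegative cycling samples, against 1020 to 1152 CPM in the comparison samples. No cycling sample reached the comparison range. Il7r, the interleukin 7 receptor of long-lived T cells, averaged 335 ± 96.5 against 567 ± 133 CPM. Klf2 averaged 38.3 ± 56.6 against 150 ± 94.4 CPM and had no UMI in 2 thinned MitoNegative cycling sums.

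In thinned cells effector genes were measured for 13 of 25 members, and none had a higher measured CPM in all 6 samples, as 6.25% of all genes did. In these sums Gzma (granzyme A) was at 398, 310 and 992 CPM in MitoPositive and at 524, 37.0 and 353 CPM in MitoNegative cycling samples. Comparison samples had 40.3 to 209 CPM, so 1 cycling sample lay below their range and the others above it. That low value was 1 UMI. With all UMIs Gzma was at 422, 396 and 1093 CPM in MitoPositive and at 402, 297 and 389 CPM in MitoNegative cycling samples. Comparison samples then had 53.5 to 215 CPM, so every cycling sample lay above them. Gzmb (granzyme B) averaged 20.2 ± 17.6 against 4.78 ± 4.16 CPM in thinned cells. It was higher in 4 of 6 samples there and had no UMI in 2 MitoNegative cycling sums. Counted with all UMIs, it averaged 26.2 ± 12.2 against 6.23 ± 3.85 CPM and was higher in 6 of 6 samples, on 1, 3 and 7 UMIs in the MitoNegative cycling samples. T cell identity genes lay near the comparison cells, with a list median of -0.29, and Cd8b1 averaged 827 ± 228 against 1534 ± 154 CPM.

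The nuclear genes of energy metabolism differed little in their list medians. The list median was 0.46 for glycolysis (13 of 21 members measured, 1 higher in all 6 samples by measured CPM), 0.32 for nuclear oxidative phosphorylation genes (71 of 72, 8 higher and 3 lower in all 6) and 0.35 for the tricarboxylic acid cycle, against 0.10 for all genes. No member of these 3 lists passed 2-fold in all 6 samples. Ldha, the enzyme that forms lactate, averaged 315 ± 82.7 against 234 ± 12.4 CPM. For the 13 mitochondrially encoded genes the median was 0.55 in thinned cells and -0.01 with all UMIs. In thinned cells 7 of the 13 had a higher measured CPM in all 6 samples, and 0 a lower one. For genes of cytosolic ribosomal proteins the median was -0.17, and -0.002 with all UMIs. In thinned cells 24 of these 52 genes had a lower measured CPM in all 6 samples, and 2 a higher one. Over all genes 6.25% were higher and 7.78% lower in all 6.

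Beyond the fixed lists, the genes with the largest ratios included the DNA glycosylase gene Neil3 at 203 ± 58.8 against 0.752 ± 0.947 CPM and the kinesin gene Kif18b and the helicase gene Pif1, which had no UMI in the thinned comparison cells. Among the genes lower in all 6 samples with at least 50 CPM were Pik3ip1, Kdm5b, Pnpla7 and Id3. Pik3ip1, an inhibitor of PI3 kinase that resting T cells express, was at 41.8 ± 26.4 against 174 ± 17.6 CPM. The lysine demethylase gene Kdm5b was at 22.7 ± 15.5 against 94.55 ± 11.99 CPM. Pnpla7 was at 16.2 ± 22.5 against 93.1 ± 11.9 CPM, and Id3, a repressor of E proteins, at 22.3 ± 28.0 against 81.7 ± 15.2 CPM. Pnpla7 and Id3 had no UMI in 3 of the 6 thinned cycling sums, and Pik3ip1 and Kdm5b each had none in 1.

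The first comparison by state asked how many cells were cycling. In the MitoPositive samples of donors 1, 2 and 3, 38 of 977, 58 of 937 and 86 of 1025 kept cells were cycling. These are 3.89% (95% Wilson interval 2.85 to 5.29), 6.19% (4.82 to 7.92) and 8.39% (6.84 to 10.3). In the MitoNegative samples 7 of 951, 9 of 823 and 17 of 897 cells were cycling, 0.736% (0.357 to 1.51), 1.09% (0.576 to 2.07) and 1.90% (1.19 to 3.01). No interval of a MitoPositive sample overlapped that of the MitoNegative sample of its donor, and the lowest MitoPositive share was above the highest MitoNegative share.

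The mean share was 6.16% ± 2.25 against 1.24% ± 0.594 (SD, n = 3 per group). It was higher in 3 of 3 donors, by 5.28-fold, 5.66-fold and 4.43-fold, and the exact two-sided permutation p was 0.1, the smallest that 3 samples against 3 can give. With the rule applied to cells thinned to 3000 UMIs the means were 5.85% and 1.28%, and without the barcodes of 100000 or more hashtag UMIs they were 5.88% and 1.17%. Under the other hashtag map the means were 3.61% and 3.79% (exact p = 0.9). The intervals cover counting error only.

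**Figure D4:**
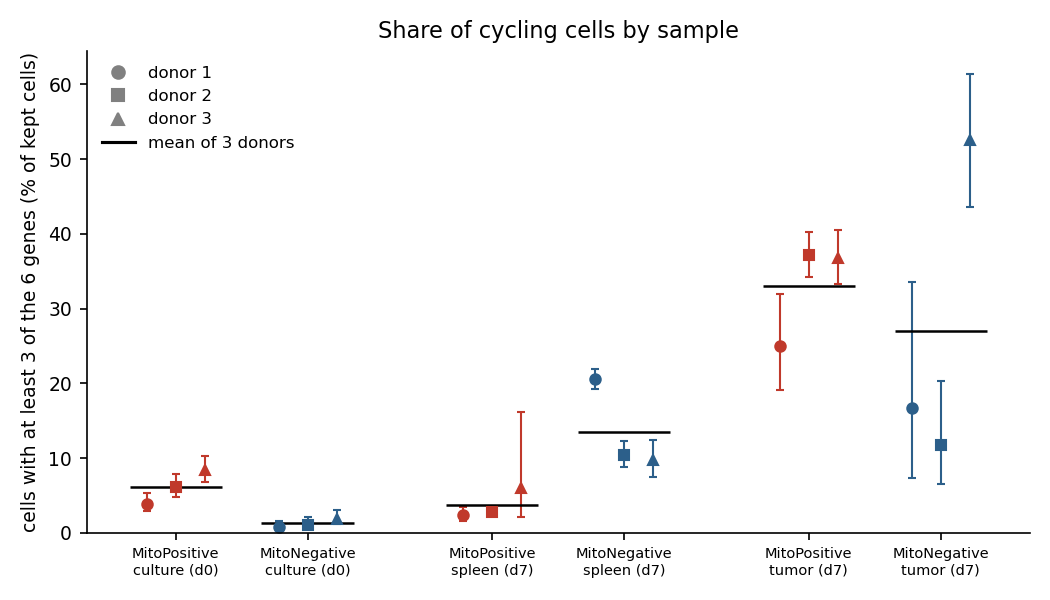
Percent of kept cells with at least 3 of the 6 genes, 1 point per sample with its 95% Wilson interval and a line at the mean of 3 donors, for culture, spleen and tumor. In culture the 3 MitoPositive samples (3.89% to 8.39%) lie above the 3 MitoNegative samples (0.736% to 1.90%), and in the spleen at day 7 the order is the opposite in each donor.

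The depth of the cycling cells also differed by state. Their median was 20473, 18996 and 18959 UMIs in the MitoPositive samples and 12211, 13684 and 13783 UMIs in the MitoNegative samples. The groups did not overlap (exact p = 0.1, the smallest possible, 0.15 adjusted over 3 measures), and without the barcodes of high hashtag signal the mean difference of 6250 UMIs became 4955. Genes per cell averaged 4335 ± 211 against 3628 ± 45.2 (exact p = 0.1). Mitochondrially encoded genes took 2.52% ± 0.23 of the UMIs in MitoPositive and 2.85% ± 0.473 in MitoNegative cycling cells (exact p = 0.4, 0.4 adjusted), lower in the MitoPositive sample of 3 of 3 donors. The CD4 T cell list, in which Cd4 itself had no UMI in cycling cells, summed to 331, 464 and 415 CPM in the MitoPositive and to 218, 195 and 89.2 CPM in the MitoNegative cycling samples, with no overlap. In comparison cells it was at 419 to 469.5 CPM in MitoPositive and at 325 to 333 CPM in MitoNegative samples. In thinned cells Ikzf2, which encodes the transcription factor Helios, was the only gene of this list with a mean of at least 20 CPM. It averaged 413 ± 246 CPM in cycling and 366 ± 78.1 CPM in comparison cells, so the list sum is mostly this 1 gene. With all UMIs Ikzf2 had a log2 fold change of 1.38 ± 0.31 between states in cycling cells (edgeR, adjusted p = 0.16) and of 0.48 ± 0.071 in comparison cells (adjusted p = 0.00085). The part of depth and of these markers in the results by state was not tested.

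Within cycling cells, the summed levels of the 5 cell cycle lists overlapped between the states. The summed level of the spindle list was 6411, 7411 and 5781 CPM in the MitoPositive and 6546, 9569 and 9692 CPM in the MitoNegative samples, a mean log2 difference of -0.38 (exact p = 0.2, 0.5 adjusted over 5 lists). The kinetochore list differed by -0.37 and the list of cyclins and kinases by -0.40 (exact p = 0.3 each), and the range of each list overlapped between states. In thinned cells the difference was -0.17 for the spindle, -0.18 for the kinetochore and -0.064 for the cyclin and kinase list. The histone sum averaged 3977 ± 989 against 4618 ± 1321 CPM (log2 difference -0.20, exact p = 0.6). Without the barcodes of 100000 or more hashtag UMIs its difference was 1.16, and in thinned cells 0.39, so its direction turned. The S phase sum averaged 3484 ± 534 against 3337 ± 1589 CPM (0.18, exact p = 0.8), and its difference was -0.25 without the MitoNegative sample of donor 1. With 3 samples a group, no exact p under 0.1 was possible. All 6 genes of the rule were found in 65.8%, 58.6% and 51.2% of MitoPositive and in 42.9%, 55.6% and 58.8% of MitoNegative cycling cells. The genes of the rule themselves had fold changes of -0.51 to -0.22 on the log2 scale, for example Top2a at 956 against 1293 CPM (edgeR, adjusted p = 1), and were used to choose the cells.

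Across all genes, edgeR's quasi-likelihood test on the sums over cycling cells called 5 of 6592 genes, 0.0758%, all lower in MitoPositive cells, and 0 higher. At an unadjusted p under 0.05 there were 292 genes, and DESeq2 called 1 higher and 10 lower. The 5 genes were Arsb, Samd3, Ccr2, Ms4a4c and Ly6c2. All of them are protein-coding (GRCm38, GENCODE annotation).

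Arsb, which encodes the lysosomal enzyme arylsulfatase B (ENSMUSG00000042082, chr13:93771630-93943016), was at 39.7, 39.0 and 38.0 CPM in the MitoPositive and at 162, 142 and 146 CPM in the MitoNegative cycling samples. It fell by 1.93 ± 0.24 on the log2 scale (SE, edgeR, adjusted p = 0.00067). Samd3 (ENSMUSG00000051354, chr10:26229707-26272172), which encodes a sterile alpha motif protein, was at 27.7, 19.5 and 15.03 against 98.7, 128 and 78.5 CPM and fell by 2.33 ± 0.32 (adjusted p = 0.0016). In both genes the 3 MitoNegative samples lay well above the 3 MitoPositive ones.

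Ccr2, a chemokine receptor that guides T cells and monocytes to inflamed tissue (ENSMUSG00000049103, chr9:124101950-124113557), was at 37.3, 36.0 and 21.4 against 162, 148 and 74.96 CPM and fell by 1.99 ± 0.32 (edgeR, adjusted p = 0.0081). Ms4a4c, a gene of the MS4A family of membrane proteins (ENSMUSG00000024675, chr19:11404770-11427246), was at 39.7, 45.7 and 30.9 against 183, 67.4 and 143 CPM and fell by 1.80 ± 0.29 (adjusted p = 0.0082). Ly6c2, which encodes the surface protein Ly6C of memory and effector CD8 T cells (ENSMUSG00000022584, chr15:75108158-75111970), was at 249, 174 and 312 against 606, 788 and 1371 CPM and fell by 1.92 ± 0.33 (adjusted p = 0.011). The groups did not overlap for any of the 3 genes. Ly6c2 has close relatives in the Ly6 cluster, so reads could be split among them.

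These calls rest on few cells and few UMIs in the MitoNegative samples. The 3 MitoNegative sums came from 33 cells, and 1 cell gave up to 82.6% of a sample's Ccr2 UMIs, 76.2% of its Arsb, 58.1% of its Ly6c2, 57.9% of its Samd3 and 42.3% of its Ms4a4c UMIs. A UMI of Arsb was found in 19 of 33 MitoNegative and 62 of 182 MitoPositive cycling cells, of Samd3 in 16 and 42, and of Ccr2 in 14 and 54. In cells thinned to 3000 UMIs only Ly6c2 of the 5 was high enough to be tested, at -1.71 (edgeR, adjusted p = 0.023), and with 7 thinned cells per sample it was at -1.23 (adjusted p = 0.28). Over all its alternatives the adjusted p of Ly6c2 ran from 7.23e-12 to 0.80. All 5 stayed called without the barcodes of high hashtag signal, where 9 genes were called, and with the donor as a block, where 8 were. Without the MitoNegative sample of donor 1, 73 genes were called, and without the MitoPositive sample of donor 3, 2 genes, Arsb and Samd3. Under the other hashtag map none was called by edgeR, with 388 genes at an unadjusted p under 0.05.

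**Figure D5:**
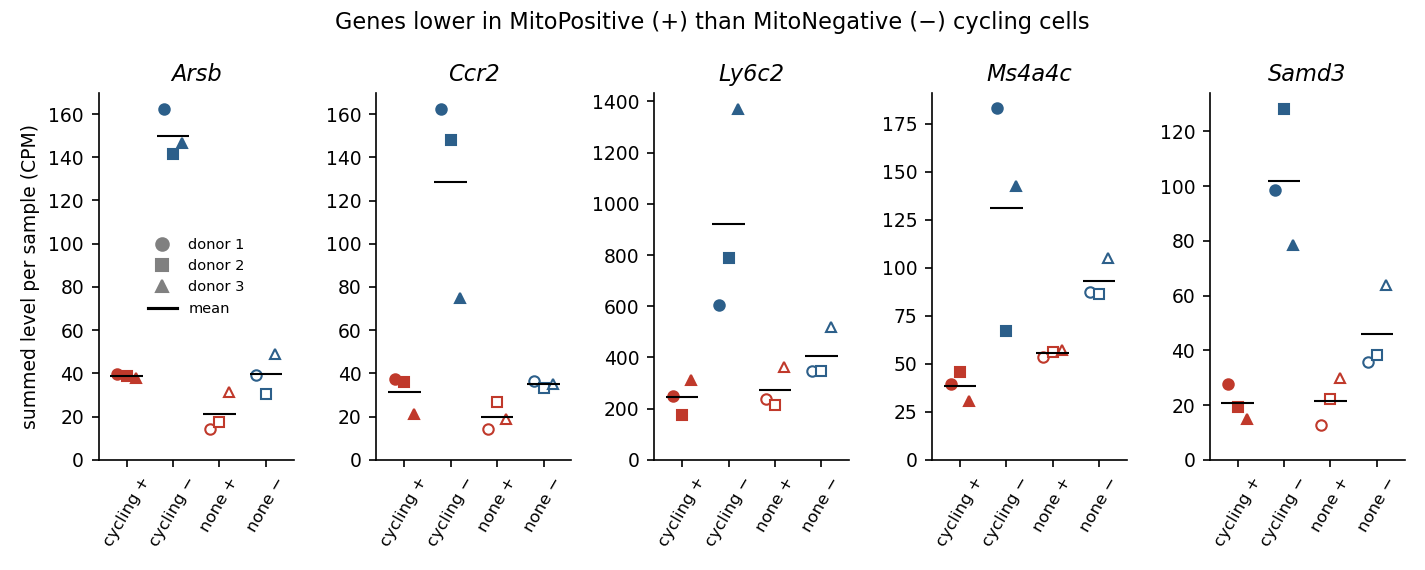
Level in CPM of the 5 called genes in each of 6 samples, for cycling cells (filled) and comparison cells (open), MitoPositive in red and MitoNegative in blue, with donors by symbol and a line at the mean of 3. In each panel the 3 MitoNegative cycling samples lie above the 3 MitoPositive ones.

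The same contrast in the comparison cells called 211 genes higher (1.99%) and 170 lower (1.6%) of 10599 tested by edgeR, 3.59% in all. With the donor as a block 1104 genes were called. Those sums held 12968760 UMIs in MitoPositive and 11733462 in MitoNegative samples, against 4693149 and 570460 in cycling cells, so both counts of calls were made at different depths. In the comparison cells Samd3 fell by 1.04 ± 0.23 (edgeR, adjusted p = 0.020), Arsb by 0.85 ± 0.22 (adjusted p = 0.036), Ccr2 by 0.76 ± 0.17 (adjusted p = 0.016) and Ms4a4c by 0.71 ± 0.10 (adjusted p = 0.00042). Ly6c2 had a log2 fold change of -0.53 ± 0.17 there, which did not pass in this fit without a donor block (edgeR, adjusted p = 0.094).

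In cycling cells, where 0.0758% of all 6592 tested genes were called by state, none of the gene lists held a called gene. At so small a share this absence says little about the lists. Log2 fold changes had a median of -0.45 over the 31 tested spindle and cytokinesis genes, none positive, of -0.35 over 26 kinetochore genes and -0.37 over 23 cyclin and kinase genes, against -0.01 over all genes. At an unadjusted edgeR p under 0.05 were 10 of the spindle, 4 of the kinetochore and 4 of the cyclin and kinase genes. So were 0 of 46 replication genes, 0 of 19 histone genes and 292 of all genes tested. The median was 0.15 over ribosomal protein genes (49 of 52 positive), 0.19 over glycolysis genes (10 of 14), 0.05 over nuclear oxidative phosphorylation genes (42 of 71) and -0.20 over mitochondrially encoded genes (2 of 13). None of these medians was tested. Gzma was at 637 against 362 CPM (0.85 ± 0.36, edgeR adjusted p = 1), and Ccnd2 at 311 against 239 CPM (0.41 ± 0.25). Cdk1, Pcna, Rrm2, Cd8a, Cd3e, Il7r, Tcf7, Klf2, Il2ra, Cdkn1b, Ccnd3, Tfam and Ldha had an adjusted p of 1, and Myc, Prf1 and Cdkn1a were too low to be tested.

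Whether the effect of state differed between cycling and comparison cells was tested as an interaction with the sample as a block. edgeR called 5 of 10846 genes (0.0461%), 1 with a positive (0.00922%) and 4 with a negative difference (0.0369%). Ube2c was at 379, 441 and 374 CPM in MitoPositive and 282, 910 and 578 CPM in MitoNegative cycling cells, and at 17.0 against 7.35 CPM on average in comparison cells, a difference of -1.69 ± 0.30 (adjusted p = 0.0027). Ly6c2 had a difference of -1.27 ± 0.23 (adjusted p = 0.0035), being at 245 against 922 CPM in cycling and at 272 against 405 CPM in comparison cells. Itgb1, which encodes integrin beta 1, was at 282, 277 and 233 against 388, 580 and 675 CPM in cycling and at 159 against 147 CPM in comparison cells (-1.13 ± 0.22, adjusted p = 0.012). Gzmk (granzyme K) was at 6.02, 7.49 and 10.3 against 14.1, 67.4 and 35.7 CPM in cycling cells and at 5.85 against 2.955 CPM in comparison cells (-3.19 ± 0.64, adjusted p = 0.012). It was found in 19 of the 182 MitoPositive and 7 of the 33 MitoNegative cycling cells, the latter with 22 UMIs in all. Of the UMIs of a MitoNegative cycling sample, 1 cell gave up to 52.5% for Ube2c, 48.8% for Itgb1 and 90% for Gzmk.

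Dapl1, a gene of naive and memory CD8 T cells, was the fifth. It had 0 UMIs in the 33 MitoNegative cycling cells and 95 UMIs in 16 of the 182 MitoPositive ones, 95.5% of those of donor 1 in 1 cell. In comparison cells it was at 20.6 against 72.2 CPM. Its fitted difference of 10.61 depends on the count added to the zeros and is no estimate of size. With 33 cells of lower median depth from 3 samples, a count of 0 bounds the share of cells with a UMI only loosely. In MitoPositive cycling cells that share was 8.79%, and the difference between these shares was not tested. None of the 5 genes was called with thinned cells or with no sample block, where edgeR called 0 genes (596 and 781 at an unadjusted p under 0.05). Without the MitoNegative sample of donor 1, 65 genes were called, without that of donor 2 or the MitoPositive sample of donor 3, 1 gene each, and without any of the other 3 samples 8 to 18.

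In the day 7 libraries the same rule found 2.35%, 2.78% and 6.00% of cells cycling in the spleen of MitoPositive and 20.5%, 10.4% and 9.68% in the spleen of MitoNegative arms. In the tumor 25%, 37.2% and 36.8% of MitoPositive and 16.7%, 11.8% and 52.6% of MitoNegative cells met it, with 30 to 116 kept cells in each of the last 3 samples. These shares were counted on all UMIs, and depth differed. Median UMIs in the spleen were 6087.5, 5288 and 6193.5 in MitoPositive and 7119, 5791 and 7224.5 in MitoNegative samples. In the tumor they were 10272.5, 15810 and 14666 in MitoPositive and 13566.5, 10067 and 21893.5 in MitoNegative samples. The part of depth in these shares was not tested.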

How the data were processed

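The deposited gene matrices hold raw UMI counts per gene and barcode, with the hashtag counts of the same barcodes. Per the submitters' processing notes, Cell Ranger 7.0.0 and Seurat 4.0.5 were used with the mouse genome mm10 (GRCm38). Per the labels' protocols the libraries were made with a Chromium 3′ kit with poly(dT) capture.

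Barcodes of the d0 library were kept with at least 500 genes, under 15% mitochondrially encoded UMIs, and a top hashtag that had 10 or more UMIs and 3 or more times those of the next. The top hashtag was read against the deposited hashtag list. The cycling rule, the gene lists and the tests were chosen with earlier results of these data known. UMI counts were summed per hashtagged sample over cycling cells and over cells with none of the 6 genes. Sums ranged from 141918 to 2527622 UMIs for cycling cells.

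The states were compared with edgeR 4.0.16 (filterByExpr, TMM, quasi-likelihood test, Benjamini-Hochberg over all genes tested, threshold 0.05, R 4.3.3). The main fits by state within cycling cells and within comparison cells had no donor term, so they left the pairing by donor out. DESeq2 1.42.0 was an alternative. All edgeR adjusted p-values in the text come from these fits or their alternatives. A run on simulated counts did not model single cells that dominate a sum, and no conclusion is drawn from it. Single values per sample were compared with exact two-sided permutation tests (scipy 1.17.1), which also left the pairing by donor out. Cycling and comparison cells were compared without a test, as log2 ratios of CPM with 0.5 added to each count, in cells thinned to 3000 UMIs, and by counts of genes on CPM with nothing added.

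Genes were named by rule. It took up to 4 examples per list (the highest CPM and the largest ratios in cycling cells), the 12 largest ratios in each direction with a mean of at least 50 CPM, up to 10 genes called in each direction per test with a mean of at least 20 CPM, and a short list of T cell and cell cycle genes. Of the largest ratios and list examples the text gives a part.

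The samples of a donor mouse are paired by the hashtag list. Correlations of their deviations from the group means were 0.07, -0.13 and 0.21 in cycling cells and 0.60, 0.06 and 0.45 in comparison cells. The 3 donor samples per state are the replicates, and 1 library holds all 6, so a library effect cannot be separated from them. Some genes are not reported here.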

Additional observations from a re-analysis of the deposited data

Results flagged for a closer look

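The share of cycling cells was higher in MitoPositive than in MitoNegative samples in 3 of 3 donors at d0, by 4.915 percentage points on average. In the spleen on day 7 it was lower in 3 of 3 donors, by a mean difference of -9.835 points. Every donor moved one way in culture and the other way in the spleen, and the difference between both was not tested. In both places the sample with the higher share also had the higher median UMIs in each donor. The part of depth in the spleen shares was not tested. The day 7 spleen sample of MitoPositive cells from donor 3 held 50 kept cells, 3 of them cycling.

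The effect of state differed between cycling and comparison cells in 5 genes by edgeR's interaction test. The fitted log2 differences were 10.61 for Dapl1, -3.19 for Gzmk, -1.13 for Itgb1, -1.27 for Ly6c2 and -1.69 for Ube2c. In Dapl1 the value depends on the count added to zeros, and in Gzmk 1 cell held up to 90% of the UMIs of a MitoNegative sample.

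Among the 598 barcodes left out for want of a single hashtag, 80 (13.4%, 95% Wilson interval 10.9 to 16.3) had UMIs in at least 3 of the 6 genes, against 3.83% of kept cells. Their median depth was 14810 UMIs. At 3000 UMIs per barcode the shares were 6.62% of 559 barcodes and 3.72% of the kept cells.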

How the results depend on the processing

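The count of genes at least 2-fold apart between cycling and comparison cells (286) was 457 with 2 added to each count, 181 with the scaled count and 185 with no added count, the last 2 chosen after seeing the data, as were the removal of barcodes with high hashtag signal, the thinning of all cells in the tests by state, and the rule applied to thinned cells for this count. The calls by state in cycling cells (5) were 11 with DESeq2, 32 with no filter on low counts, 2 in thinned cells, 9 without the barcodes of high hashtag signal, and 2 to 73 with 1 sample left out. By edgeR they were 0 with equal numbers of thinned cells (53 of 300 genes at an unadjusted p under 0.05) and 0 under the other hashtag map (388). In comparison cells the calls (381) were 218 with DESeq2, 650 with no filter, 231 in thinned cells, 230 with equal numbers of them, 0 by edgeR under the other map (628 at an unadjusted p under 0.05), and 143 to 553 with 1 sample left out (178 without MitoNegative donor 1, 143 without MitoPositive donor 2, 146 without MitoNegative donor 2 and 215 without MitoPositive donor 3). The interaction (5) gave 14 with no filter, 0 in thinned cells (596 at an unadjusted p under 0.05), 26 without the barcodes of high hashtag signal, and 1 to 65 with 1 sample left out.

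With the donor as a replicate block the calls by state were 8 in cycling and 1104 in comparison cells, and the interaction with no replicate block gave 0 by edgeR (781 at an unadjusted p under 0.05). As a paired mean within donors the share difference was 4.915 points.

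The share difference (4.915 points) was 6.85 with cells of 1 or 2 genes left out of the total, -0.188 under the other map, and 3.798 to 6.048 with 1 sample left out. The other map also gave differences of 1751 median UMIs, 391 median genes and 0.36 points of mitochondrially encoded share. The median UMI difference without the barcodes of high hashtag signal was 4955. The log2 difference of the histone sum was 0.39 in thinned cells and 1.16 without those barcodes, and that of mitotic cyclins and kinases was -0.064 in thinned cells. The cause of these shifts was not tested.

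Single-gene results were followed under all alternatives. Between cycling and comparison cells 252 values stayed within a limit set from each gene's range over samples, and 36 went past it. Of the calls by state 53 were kept and 14 lost, and of those of the interaction 31 were kept and 24 lost. The 33 MitoNegative cycling cells, 7 in donor 1, set the depth of the results by state within cycling cells and of the interaction.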
